A study of Mus musculus with 8 samples.

Results

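The 10 genes described here belong to the transforming growth factor beta (TGF-beta) pathway of mouse blood stem and progenitor cells: the ligand Tgfb1, the receptors Tgfbr1 and Tgfbr2, the signal transducer Smad3, the inhibitory Smad7, the co-repressors Ski and Skil (also called SnoN), and the Id genes Id1, Id2 and Id3. They were taken by symbol from 24346 gene symbols, and all 10 were found. All 10 passed the filter on low values (at least 1 FPKM in at least 2 libraries), as did 12003 genes in all. FPKM is the number of fragments per kilobase of transcript, scaled to the fragments mapped in the library, so levels of genes of unlike length can be compared within a library. The 10 genes were chosen by name with earlier results on these libraries known, namely the FPKM values of cells cultured with and without red blood cells, in which Skil differed.

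The study compared 2 populations of wild-type C57BL/6 mouse bone marrow cells, from mice of 8 to 20 weeks by the study's methods, after 1 day in serum-free medium with thrombopoietin and stem cell factor. Long-term hematopoietic stem cells (HSCs) were sorted as Lin- Sca-1+ c-Kit+ CD48- CD150+, and LSK cells, the wider stem and progenitor population, as Lin- Sca-1+ c-Kit+. Each population was cultured alone or in direct contact with irradiated, leukocyte-filtered red blood cells (RBCs), which were lysed before CD45+ cells were sorted and their RNA was sequenced. Every one of the 4 groups (HSCs without RBCs, HSCs with RBCs, LSK cells without RBCs, LSK cells with RBCs) held 2 libraries. The labels do not say whether the 2 came from separate animals or cultures, so p-values measure only the spread between these libraries, which may be technical. LSK cells contain HSCs, so the populations are nested. In such bulk libraries, fewer cells of a type and less RNA per cell cannot be told apart.

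TGF-beta binds the type II receptor Tgfbr2, which recruits and phosphorylates the type I receptor Tgfbr1. Tgfbr1 then phosphorylates Smad2 and Smad3, which join Smad4 and enter the nucleus to act on target genes. Smad7 is a target gene that acts back on the receptors, and Ski and Skil bind Smad complexes and repress their targets. Id proteins lack a DNA-binding region and hold E proteins away from DNA. Their genes are best known as targets of bone morphogenetic proteins (BMPs), which act through Smad1 and Smad5. In bone marrow, TGF-beta is known for holding HSCs in quiescence.

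The summed FPKM of 5 HSC markers (Procr, Slamf1, Mecom, Hlf and Fgd5) was 152 to 154 in HSCs without RBCs and 120.0 to 122 with them, with 4 of 5 lower in every library with RBCs, and 85.1 to 85.2 and 85.0 to 94.1 in LSK cells. The 5 LSK markers (Kit, Ly6a, Cd34, Flt3 and Cd48) summed to 899 to 942 and 1128 to 1330 in HSCs and to 1182 to 1275 and 1074 to 1135 in LSK cells. The sums of the populations overlapped with RBCs and not without. Kit, Cd34, Flt3 and Cd48 were each higher in LSK cells in both cultures, with no overlap of libraries. Flt3 was 4.52-fold higher without RBCs and 5.42-fold with them, and Cd48 3.98-fold and 6.50-fold. Ly6a, the gene of Sca-1, was lower in LSK cells in both cultures. Markers of other blood cells also moved with RBCs. The summed FPKM of 10 neutrophil markers was 8.54 to 10.6 in HSCs without RBCs and 46.4 to 254 with RBCs, and 129 to 221 in LSK cells without RBCs and 366 to 572 with RBCs, with 8 of 10 markers higher in every library with RBCs in either population. The 5 red cell markers summed to 2.91 to 3.34 in HSCs without RBCs and 94.5 to 126 with them, and to 4.88 to 5.02 and 38.4 to 47.4 in LSK cells. Slc4a1, a defining red cell marker, stayed under 1 FPKM in all 8 libraries. The 6 monocyte markers summed to 402 to 432 in HSCs without RBCs and 327 to 328 with them, and in LSK cells to 273 to 362 and 493 to 603. In HSCs these markers did not move alike. Lyz2, the largest term, was lower with RBCs (312 and 321 to 221 and 218 FPKM), as was Cx3cr1. Csf1r (2.53 and 2.81 to 7.08 and 9.37 FPKM) and Ccr2 (0.840 and 0.976 to 1.87 and 2.09 FPKM) were higher. The 8 platelet markers summed to 194 to 232 and 192 to 209 in HSCs, and to 111 to 205 and 85.5 to 102 in LSK cells, with Gp6 listed at 0 throughout. They did not move alike either. In HSCs, Itga2b, Gp1bb and Gp1ba were higher in every library with RBCs, and Pf4 and Gp9 were lower. Gp1ba went from 2.44 and 2.78 to 8.37 and 5.845 FPKM there. In LSK cells, Gp1ba was higher with RBCs, and Pf4 and Ppbp were lower. The part of these other blood cells in the results was not tested. From the step size of low FPKM values, the libraries were estimated to hold 11100000 to 14100000 fragments each, which places the weakest of the 10 genes, Smad7, at 18.6 to 34.1 fragments per kilobase and Skil at 79.4 to 252.

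Short DNA words that Smad proteins are known to bind occurred near the start sites of some of these genes. They are shown because the 10 genes include known targets of the pathway itself. Windows from 250 bases before to 50 bases after a start site were taken from RefSeq (GRCm38.p6) for 6 of the 10 genes, in 7 windows, and were searched on both strands for CAGAC (read GTCTG on the other strand), for the palindrome GTCTAGAC, which holds neither short word, and for GGCGCC, which is its own reverse complement. CAGAC or GTCTG lay near the start of 2 genes (Id3 and a second start of Tgfbr1), the palindrome near none, and GGCGCC near 3 (Tgfbr1, Ski and Id2). Over all 32851 windows of the reference the shares were 49.6%, 0.213% and 11.9%. A match is a string of letters and not a measured site. In the lines that follow, capitals mark the word found, and the number gives its first base relative to the start site.
Id3, -167: tgtcctcggcgtCAGACcagcctaaggaa
Id3, -68: ggacccttggcgGTCTGttttgaataagg
Tgfbr1, -203 from its second start: tttcgaactcagCAGACagccccacggtc
Tgfbr1, -233: ggctggagtaaaGGCGCCcagcggtgaggg
Ski, -220: gcgcgtggatgtGGCGCCgggcccgggcgg
Id2, -231: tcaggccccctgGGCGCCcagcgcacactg
The Id3 words lie at chr4:136143643-136143671 and chr4:136143742-136143770 on the plus strand, in an untranslated region of a longer GENCODE transcript. Those of Tgfbr1 lie on the plus strand, in an intron at chr4:47386001-47386029 and upstream of the gene at chr4:47352977-47353006. The Ski word lies upstream at chr4:155222738-155222767 and the Id2 word in an intron at chr12:25096306-25096335, both on the minus strand.

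Skil was the gene of the 10 with the widest difference between cultures with and without RBCs. Skil lies on chr3:31095058-31122577 (plus strand, GRCm38) and overlaps no other annotated gene, as none of the 10 does. HSCs without RBCs held 6.24 and 6.90 FPKM, and HSCs with RBCs 20.2 and 17.6 FPKM. LSK cells without RBCs held 7.95 and 7.64 FPKM, and LSK cells with RBCs 13.7 and 12.8 FPKM. No library of any group overlapped another group, so the order of the levels was HSCs with RBCs, LSK cells with RBCs, LSK cells without RBCs and HSCs without RBCs. The last neighbours lay closest, with means of 7.79 ± 0.222 and 6.57 ± 0.468 FPKM (SD, n = 2 each). On the log2(FPKM + 1) scale, which understates changes of low genes, Skil was higher with RBCs by 1.39 (SE 0.118, 2.62-fold) in HSCs and by 0.69 (SE 0.118, 1.62-fold) in LSK cells. These values are given without a test, as for all 10 genes with against without RBCs, because the genes were chosen with this contrast known.

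**Figure D1:**
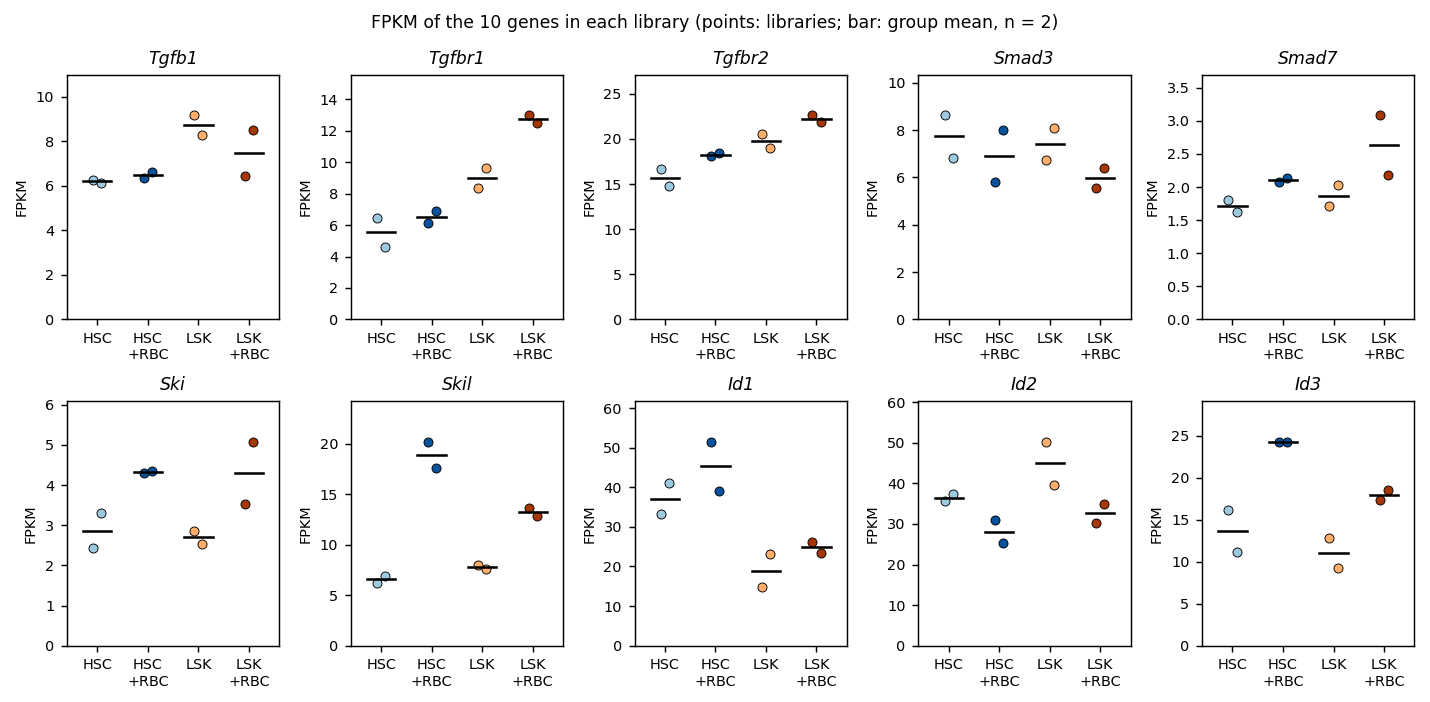
FPKM of each of the 10 genes (vertical axis, from 0, with its own scale per gene) in the 4 groups (horizontal axis); a point is a library and a bar the mean of 2 libraries. Skil stands at 17.6 and 20.2 FPKM in HSCs with RBCs and at 6.24 and 6.90 FPKM without, and Id2 is lower with RBCs in both populations.

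Ski, the namesake of the co-repressor family, stood at lower levels than Skil in all 8 libraries. Its FPKM was 2.44 and 3.29 in HSCs without RBCs, 4.31 and 4.35 in HSCs with RBCs, 2.86 and 2.53 in LSK cells cultured alone, and 3.53 and 5.08 in those cultured with RBCs. Both libraries with RBCs lay above both without in either population, while the populations overlapped in either culture. The difference with RBCs was 0.47 (SE 0.187) in HSCs and 0.51 (SE 0.187) in LSK cells on the log2 scale. The ratio of Skil to Ski FPKM was 2.55 and 2.095 in HSCs without RBCs and 4.68 and 4.04 with them. In LSK cells this ratio was 2.78 and 3.01 without RBCs and 3.87 and 2.52 with them, so the cultures overlapped.

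Levels of Tgfb1, which encodes the ligand, differed little with RBCs. HSCs held 6.29 and 6.13 FPKM without RBCs and 6.34 and 6.61 FPKM with them. LSK cells held 9.17 and 8.28 FPKM without RBCs and 6.43 and 8.52 FPKM with them, the widest spread of Tgfb1 between replicates. The log2 difference with RBCs was 0.05 (SE 0.147) in HSCs and -0.21 (SE 0.147) in LSK cells, where the cultures overlapped.

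Both receptor genes were highest in LSK cells with RBCs. Tgfbr1 measured 6.46 and 4.59 FPKM in HSCs without RBCs and 6.10 and 6.88 FPKM in HSCs with RBCs, which overlapped. In LSK cells it measured 8.35 and 9.64 FPKM without RBCs and 13.0 and 12.5 FPKM with them, which did not. The log2 difference with RBCs was 0.21 (SE 0.159) in HSCs and 0.46 (SE 0.159) in LSK cells. Tgfbr2, the more abundant receptor transcript in all 8 libraries, measured 16.6 and 14.8 FPKM in HSCs without RBCs, 18.1 and 18.5 FPKM in HSCs with RBCs, 20.6 and 19.0 FPKM in LSK cells without RBCs, and 22.6 and 21.9 FPKM in LSK cells with RBCs. These 4 groups did not overlap and kept that ascending order, and the log2 differences with RBCs were 0.21 (SE 0.098) in HSCs and 0.16 (SE 0.098) in LSK cells. The ratio of Tgfbr2 to Tgfbr1 FPKM was 1.74 and 1.75 in LSK cells with RBCs, below the other 6 libraries at 1.97 to 3.22.

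The Smad genes among the 10 differed less with RBCs than Skil did. Smad3 measured 8.63 and 6.84 FPKM in HSCs without RBCs, 5.79 and 8.03 FPKM in HSCs with RBCs, 6.73 and 8.10 FPKM in LSK cells without RBCs, and 5.56 and 6.42 FPKM in LSK cells with RBCs. Only the LSK cultures did not overlap, with a log2 difference of -0.27 (SE 0.180), against -0.15 (SE 0.180) in HSCs. Smad7, the lowest of the 10 genes, measured 1.81 and 1.62 FPKM in HSCs without RBCs, 2.08 and 2.14 FPKM in HSCs with RBCs, 1.71 and 2.03 FPKM in LSK cells without RBCs, and 3.08 and 2.18 FPKM in LSK cells with RBCs. Its libraries with RBCs lay above those without in both populations, by 0.20 (SE 0.178) in HSCs and 0.33 (SE 0.178) in LSK cells on the log2 scale, and without the first LSK library with RBCs the latter value was 0.15.

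The 3 Id genes did not move alike. Id3 measured 16.1 and 11.2 FPKM in HSCs without RBCs and 24.3 and 24.2 FPKM with them, and 12.8 and 9.24 FPKM in LSK cells without RBCs and 17.3 and 18.5 FPKM with them. Its libraries with RBCs lay above those without in both populations, by 0.81 (SE 0.178) in HSCs and 0.67 (SE 0.178) in LSK cells on the log2 scale. Id2 lay the other way, at 35.7 and 37.3 FPKM in HSCs without RBCs and 31.0 and 25.2 FPKM with them, and at 50.3 and 39.5 FPKM in LSK cells without RBCs and 30.2 and 35.0 FPKM with them. The log2 difference of Id2 was -0.37 (SE 0.136) in HSCs and -0.44 (SE 0.136) in LSK cells, with no overlap in either. Id1 measured 33.1 and 41.0 FPKM in HSCs without RBCs and 51.5 and 39.1 FPKM with them, which overlapped. In LSK cells Id1 measured 14.8 and 23.0 FPKM without RBCs and 26.1 and 23.5 FPKM with them, with log2 differences of 0.28 (SE 0.200) in HSCs and 0.40 (SE 0.200) in LSK cells, the latter 0.10 without the first LSK library without RBCs.

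The make-up of the Id transcripts differed between the groups more than their sum did. The summed FPKM of Id1, Id2 and Id3 ranged from 71.8 to 107 over the 8 libraries. The share of Id2 in the sum was 42.0% and 41.7% in HSCs without RBCs and 29.0% and 28.5% with them, while LSK cells had 64.6% and 55.1% without RBCs and 41.0% and 45.5% with them. The share of Id3 was 19.0% and 12.5% in HSCs without RBCs and 22.7% and 27.3% with them, while LSK cells had 16.4% and 12.9% without RBCs and 23.5% and 24.0% with them. Id1 made up 39.0% to 48.3% of the sum in the HSC libraries and 19.0% to 35.5% in the LSK libraries, so that Id1 exceeded Id2 in 3 of 4 HSC libraries and in 0 of 4 LSK libraries.

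**Figure D2:**
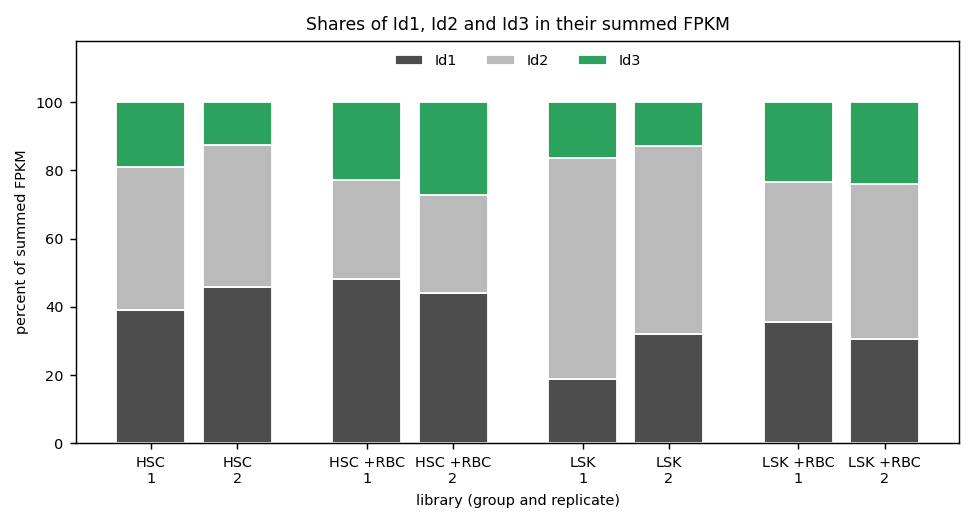
Share of Id1, Id2 and Id3 in their summed FPKM (vertical axis, percent) in each of the 8 libraries (horizontal axis, group and replicate). The Id2 segment is 28.5% and 29.0% in HSCs with RBCs and 55.1% and 64.6% in LSK cells without RBCs.

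As a description only, since the genes were chosen with this contrast known, 1 of the 10 genes in HSCs (Skil) and 0 in LSK cells met the call rule used for all genes (adjusted p under 0.05 in limma's moderated test and at least 2-fold) between cultures with and without RBCs. Over all genes tested, 0.775% and 1.01% met it, and nothing is read from these counts. At no fold threshold the count was 1 in both populations, Skil, against 2.53% and 3.45% of all genes. In HSCs the libraries of 7 of the 10 genes did not overlap (6 higher with RBCs, Id2 lower), as for 41.7% of all genes, and in LSK cells those of 9 (7 higher, Smad3 and Id2 lower), as for 50.7%. Over the 10 genes, the log2 difference had a median of 0.21 in HSCs and 0.37 in LSK cells, beside medians of -0.01 over all genes in both.

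**Figure D3:**
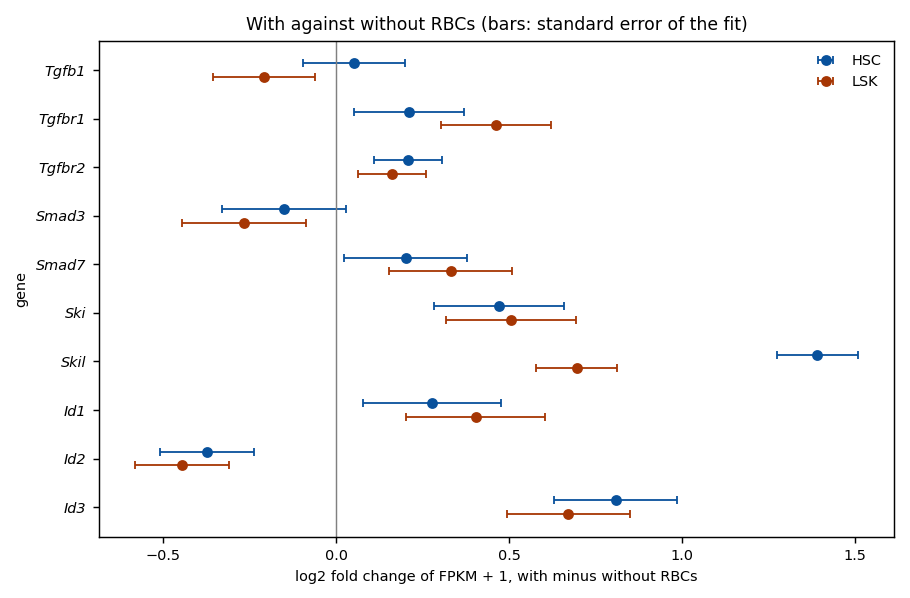
Log2 fold change of FPKM + 1 with against without RBCs (horizontal axis) for the 10 genes (vertical axis) in HSCs (blue) and LSK cells (brown); a point is the fitted difference of 2 against 2 libraries and a bar its standard error. Skil stands at 1.39 in HSCs and 0.69 in LSK cells, and Smad3 and Id2 are below 0 in both.

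LSK cells and HSCs were compared in each culture, to see which of the 10 genes set the wider progenitor population apart from HSCs. Tgfbr1 was higher in LSK cells and Id1 lower, both with and without RBCs, while the other 7 genes tested did not pass at an adjusted p under 0.05 in either culture. Skil was left out of the tests because it was chosen for its values in these libraries. Without RBCs the log2 difference of Tgfbr1 was 0.63 (SE 0.159, 1.54-fold, limma adjusted p = 0.03), and with RBCs 0.88 (SE 0.159, 1.84-fold, limma adjusted p = 0.0046). Id1 was lower in LSK cells by a log2 difference of -0.96 (SE 0.200, limma adjusted p = 0.013) without RBCs and -0.83 (SE 0.200, limma adjusted p = 0.016) with RBCs. Of these calls, that of Tgfbr1 with RBCs alone held when any single library was left out. Tgfbr1 without RBCs reached an adjusted p of 0.16 without the second LSK library without RBCs, and Id1 reached 0.085 without the second HSC library without RBCs and 0.11 without the first HSC library with RBCs.

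The remaining differences between the populations were smaller or more variable. Tgfbr2 was 0.32 higher in LSK cells without RBCs (SE 0.098, adjusted p = 0.062) and 0.27 higher with them (SE 0.098, adjusted p = 0.073), with no overlap of libraries in either culture. Tgfb1 was 0.43 higher without RBCs (SE 0.147, adjusted p = 0.085) and 0.17 higher with them (SE 0.147, adjusted p = 0.43). Id3 was at -0.28 (SE 0.178, adjusted p = 0.34) without RBCs and at -0.42 (SE 0.178, adjusted p = 0.12) with them. Id2 was at 0.28 and 0.21 (SE 0.136, adjusted p = 0.21 and 0.29). For Smad3, Smad7 and Ski the 95% intervals of the log2 difference together reached from -0.57 to 0.61 over both cultures. For each gene, a difference within its own interval is not excluded. Skil, given without a test, was 0.22 (SE 0.118) higher in LSK cells without RBCs and at -0.48 (SE 0.118) with RBCs.

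**Figure D4:**
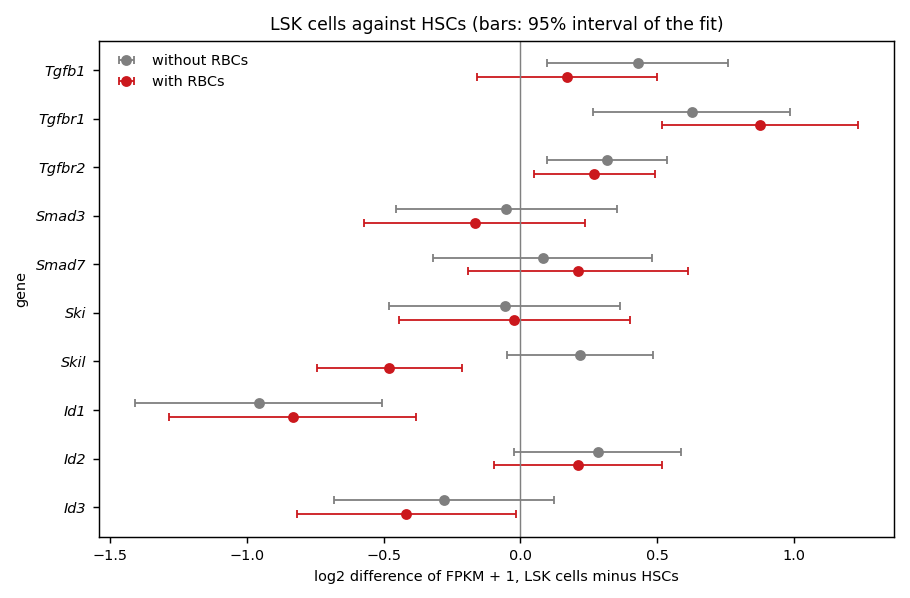
Log2 difference of FPKM + 1, LSK cells minus HSCs (horizontal axis), for the 10 genes (vertical axis) without RBCs (grey) and with RBCs (red); bars are 95% intervals of the fit. Id1 lies below 0 at -0.96 and -0.83, Tgfbr1 above 0 at 0.63 and 0.88, and Skil on either side at 0.22 and -0.48.

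No gene of the 10 was called at 2-fold between the populations, where 2.66% of all genes were without RBCs and 3.61% with them. At no fold threshold, Tgfbr1 and Id1 passed in both cultures, 2 of the 9 genes other than Skil (22.2%), beside 14.2% of all genes without RBCs and 24.4% with them. Libraries did not overlap for 6 of 10 genes in each comparison, beside 54.8% and 66.8% of all genes.

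The rest of the pathway was read from a list of 77 other genes of TGF-beta and BMP signalling, written with earlier results on these libraries known and so not independent of them. Of these, 53 passed the filter. The other 24 included the receptor genes Acvrl1, Bmpr1a and Bmpr1b, and the well-known TGF-beta target Ctgf, listed at 0 FPKM in all 8 libraries. Tgfb2 and Tgfb3 passed the filter only through the LSK libraries with RBCs, the group where they are high, so their values are given without a test and the counts cover the other 51. In HSCs, 2 of 51 rose with RBCs at 2-fold and an adjusted p under 0.05 (3.92%, beside 0.775% of all genes) and 0 fell, and at no fold threshold 5 rose and 2 fell (13.7%, beside 2.53%). In LSK cells 3 of 51 rose at 2-fold (5.88%, beside 1.01%) and 0 fell, and at no fold threshold 6 rose and 1 fell (13.7%, beside 3.45%). The median log2 difference over the 51 was 0.002 in HSCs and 0.11 in LSK cells, beside -0.01 over all genes in both.

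Among ligands and proteins that release them, Thbs1 rose with RBCs in both populations. It encodes thrombospondin-1, which is known to activate latent TGF-beta. HSCs held 8.68 and 7.93 FPKM without RBCs and 30.04 and 30.2 FPKM with them, and LSK cells 23.0 and 38.0 FPKM without and 119 and 139 FPKM with them. Libraries with RBCs lay above those without in either population, and HSCs with RBCs lay within the range of LSK cells without. The log2 rise with RBCs was 1.74 (SE 0.188, limma adjusted p = 0.002) in HSCs and 2.09 (SE 0.188, limma adjusted p = 0.00069) in LSK cells, and both passed in all 16 other settings of the fit. Summed neutrophil markers, and in LSK cells also summed monocyte markers, were higher in the same libraries. In HSCs the monocyte markers Csf1r and Ccr2 were higher with RBCs, while Lyz2 and Cx3cr1 were lower. The part of such cells in the rise of Thbs1 was not tested.

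Tgfb2 and Tgfb3, the other TGF-beta ligand genes, reached 1 FPKM in LSK cells with RBCs alone. Tgfb2 was listed at 0 and 0.0454 FPKM in LSK cells without RBCs and at 1.10 and 1.45 FPKM with them. Tgfb3 measured 0.671 and 0.603 FPKM without and 2.19 and 4.74 FPKM with RBCs. In HSCs both stayed under 1 FPKM in all 4 libraries. Tgfb3 overlaps Ttll5 on the other strand, which measured 4.66 and 6.15 FPKM in LSK cells without RBCs and 7.06 and 5.96 FPKM with them. These libraries do not mark the strand, so reads in the shared stretch cannot be assigned.

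Among the other receptor genes, changes with RBCs passed the test in HSCs and not in LSK cells, and the difference between the effects of RBCs in HSCs and LSK cells did not pass for any of the 53 genes (0.133% of all genes passed). At an unadjusted p under 0.05, 10 of the 53 (18.9%) were by the same limma fit, beside 12.5% of all genes. These 10 include Tgfb2 and Tgfb3, which passed the filter only through the LSK libraries with RBCs, so nothing is read from this share. Eng, which encodes the co-receptor endoglin, measured 80.4 and 77.9 FPKM in HSCs without RBCs and 101 and 108 FPKM with them (0.40, SE 0.065, limma adjusted p = 0.014). Tgfbr3, the gene of the co-receptor betaglycan, measured 9.69 and 8.45 FPKM without and 4.12 and 5.06 FPKM with RBCs (-0.85, SE 0.164, limma adjusted p = 0.029). Acvr2b, an activin receptor gene, measured 7.18 and 6.37 FPKM without and 2.91 and 3.66 FPKM with RBCs (-0.86, SE 0.183, limma adjusted p = 0.044). All 3 calls were lost when 1 HSC library with RBCs was left out, with adjusted p up to 0.12 for Eng, 0.22 for Tgfbr3 and 0.27 for Acvr2b over the settings tried. Eng overlaps Fpgs on the other strand, at 17.5 to 25.4 FPKM in the 4 HSC libraries.

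Of the other Smad genes, Smad4, the common partner of receptor-activated Smads, rose with RBCs in LSK cells, from 17.8 and 14.8 to 34.0 and 29.4 FPKM (0.92, SE 0.204, limma adjusted p = 0.044), a call that was lost when any of these 4 libraries was left out, with an adjusted p of up to 0.21. In HSCs Smad4 was at 30.4 and 19.4 FPKM without and 19.9 and 26.4 FPKM with RBCs. None of the 14 tested regulators of receptors and Smads passed in either population. The largest log2 difference among them was that of Hipk2, a kinase gene, at 0.92 in LSK cells (SE 0.251, limma adjusted p = 0.088), from 3.53 and 5.66 to 9.47 and 9.29 FPKM.

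Of 12 tested genes known as targets of the pathway, 3 rose with RBCs in HSCs and 0 fell (2.53% of all genes passed in either direction), and in LSK cells 4 rose and 1 fell (3.45% of all genes). Itgae, the gene of integrin alpha E (CD103), which TGF-beta is known to induce in T cells, measured 2.37 and 2.64 FPKM in HSCs without RBCs and 12.1 and 11.6 FPKM with them, and 3.76 and 4.79 FPKM in LSK cells without RBCs and 13.1 and 12.3 FPKM with them. It rose by 1.88 (SE 0.140, limma adjusted p = 0.0003) and 1.38 (SE 0.140, limma adjusted p = 0.0011), in all 16 other settings as well. Summed T cell markers were at 10.7 to 12.7 FPKM in HSCs without RBCs and 13.3 to 14.3 with them, and at 15.9 to 16.2 and 13.8 to 14.6 in LSK cells, most of it Lck (10.1 to 15.4 FPKM), with Cd3e, Cd3g and Cd8a under 1 FPKM in all 8 libraries, and their part in the result was not tested. Haspin, listed as Gsg2, overlaps Itgae on the other strand and measured 9.19 to 15.2 FPKM over the 8 libraries, with overlapping values with and without RBCs in LSK cells, 11.5 and 11.6 FPKM in HSCs without RBCs and 11.9 and 12.02 FPKM with them.

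Junb and Tsc22d1, genes of transcriptional regulators, rose in both populations. Junb rose from 56.2 and 52.8 to 89.2 and 80.7 FPKM in HSCs (0.63, SE 0.104, limma adjusted p = 0.014) and from 53.2 and 43.2 to 79.1 and 85.0 FPKM in LSK cells (0.76, SE 0.104, limma adjusted p = 0.0061). Tsc22d1 rose from 224 and 225 to 352 and 295 FPKM in HSCs (0.52, SE 0.105, limma adjusted p = 0.036) and from 254 and 209 to 351 and 340 FPKM in LSK cells (0.58, SE 0.105, limma adjusted p = 0.02). Over the settings tried the adjusted p reached 0.12 in HSCs and 0.061 in LSK cells for Junb, and 0.25 and 0.12 for Tsc22d1. Junb overlaps Prdx2 on the other strand, at 449 to 547 FPKM over the 8 libraries. Tgfbi, which encodes a secreted matrix protein induced by TGF-beta, rose in LSK cells from 5.58 and 8.34 to 14.4 and 16.0 FPKM (1.04, SE 0.162, limma adjusted p = 0.01), a call lost when 1 LSK library with RBCs was left out. Myc, which TGF-beta is known to repress in epithelial cells, fell in LSK cells from 269 and 281 to 214 and 219 FPKM (-0.34, SE 0.069, limma adjusted p = 0.03), a call lost when any of these 4 libraries was left out. None of the 5 tested genes of E proteins and their partners (Tcf3, Tcf4, Tcf12, Tal1 and Lyl1) passed in any comparison.

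**Figure D5:**
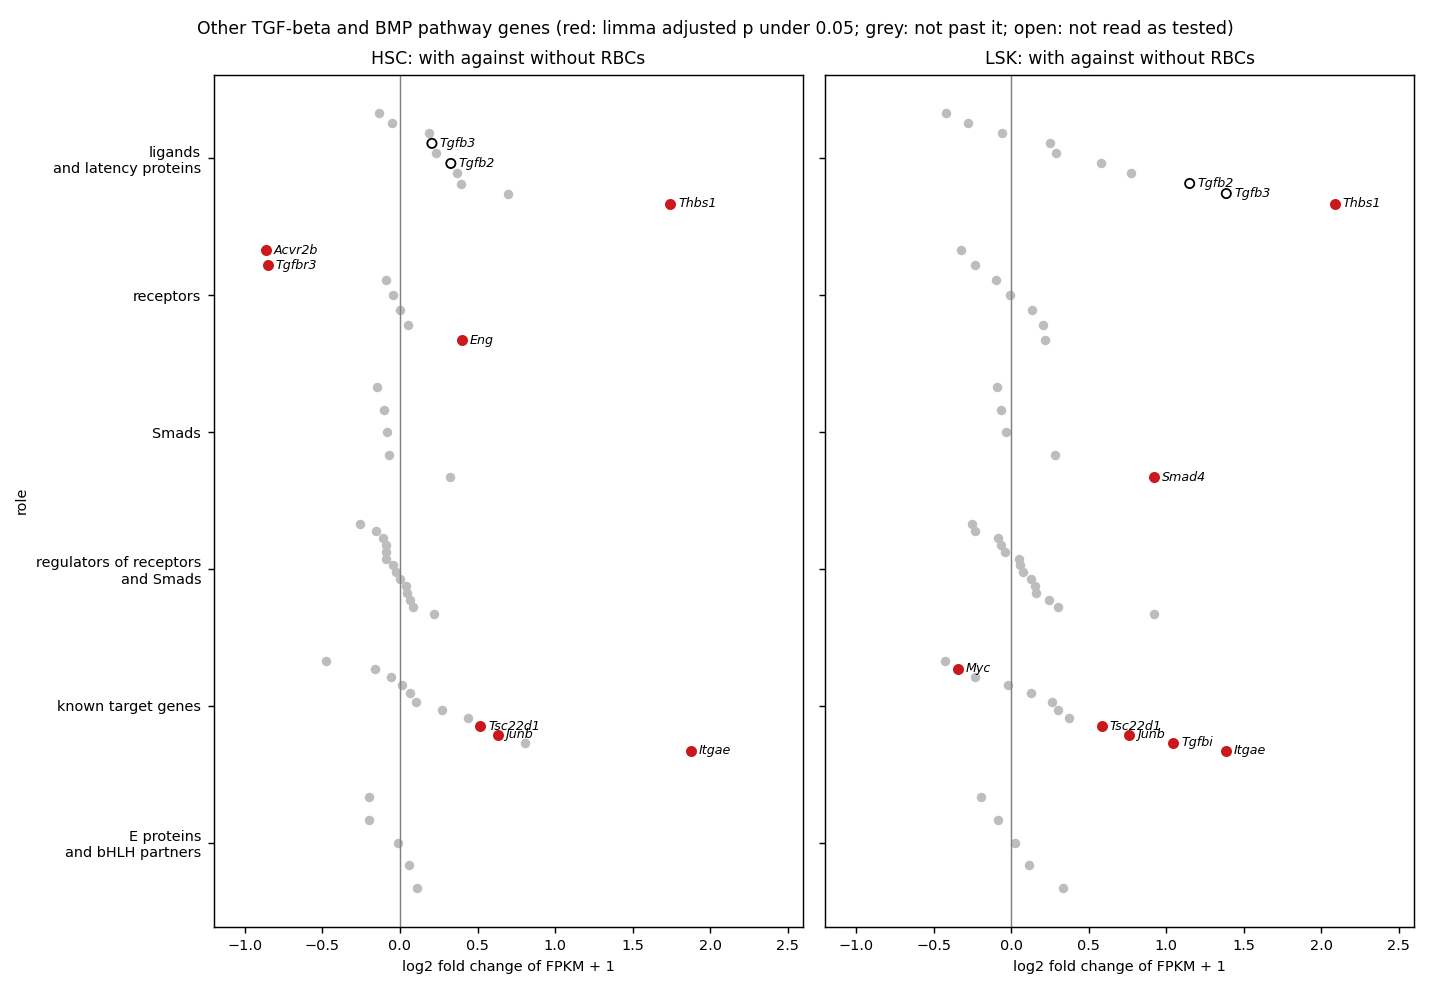
Log2 fold change of FPKM + 1 with against without RBCs (horizontal axis) of the 53 other pathway genes tested, by role (vertical axis), in HSCs (left) and LSK cells (right); red points with names passed limma's test at an adjusted p under 0.05, grey points did not, and open points are Tgfb2 and Tgfb3, given without a test. Thbs1 and Itgae lie farthest right in HSCs at 1.74 and 1.88, and Tgfbr3 and Acvr2b left of 0.

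Between the populations, 12 of the 51 pathway genes (23.5%) passed without RBCs (7 higher in LSK cells, 5 lower) and 13 (25.5%) with RBCs (6 higher, 7 lower) at no fold threshold, beside 14.2% and 24.4% of all genes, and 5 and 4 at 2-fold (9.8% and 7.84%), beside 2.66% and 3.61%. The cell cycle inhibitor genes Cdkn1a (p21) and Cdkn1c (p57) lay on opposite sides. Cdkn1a measured 87.6 to 99.7 FPKM over the HSC libraries and 169 to 190 FPKM over the LSK libraries, higher in LSK cells by 0.88 (SE 0.078, limma adjusted p = 0.00016) without and 0.99 (SE 0.078, limma adjusted p = 7e-05) with RBCs. Cdkn1c measured 6.59 to 9.99 FPKM in HSCs and 2.74 to 3.69 FPKM in LSK cells, lower in LSK cells by -1.19 (SE 0.134, limma adjusted p = 0.00061) and -0.95 (SE 0.134, limma adjusted p = 0.0013) on the log2 scale. Both passed in every setting tried.

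Of 14 tested regulators of receptors and Smads, 2 passed without RBCs and 3 with RBCs, where 14.2% and 24.4% of all genes did. Tgif1, a co-repressor gene, was 0.70 and 0.60 higher in LSK cells without and with RBCs (SE 0.081, limma adjusted p = 0.00071 and 0.001). Fkbp1a, whose product binds the type I receptor, was lower in LSK cells (-0.63 and -0.42, SE 0.069, limma adjusted p = 0.00053 and 0.003). Bmp4, a BMP ligand gene, measured 3.34 and 2.18 FPKM in HSCs without RBCs and 4.18 and 3.58 FPKM with them, against 1.28 and 1.11 FPKM and 0.482 and 0.818 FPKM in LSK cells (-0.76 and -1.57, SE 0.204, limma adjusted p = 0.038 and 0.00091). Tgfbr3 was lower in LSK cells in both cultures (-1.31 and -0.70, SE 0.164, limma adjusted p = 0.0011 and 0.015). With RBCs alone, Smad6, an inhibitory Smad gene, and Bambi, a decoy receptor gene, were also lower in LSK cells (-0.60 for both, limma adjusted p = 0.026 and 0.038). The other genes past the test were Gdf15, Zeb2 and Thbs1, higher in LSK cells in both cultures, Itgae and Myc, higher without RBCs, Acvr2b, higher with RBCs, Tgfbi, lower without RBCs, and Eng, lower with RBCs. Of all these calls, those of Thbs1, Tgif1 and Fkbp1a in both cultures, Tgfbr3 and Tgfbi without RBCs, and Bmp4 and Zeb2 with RBCs passed in all 16 other settings, and the others were lost in at least 1, that of Acvr2b in 14.

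The genes whose profile over the 8 libraries was closest to that of Skil were Exoc3l4, Abi3, Rgs1, Shisa9 and Gp1ba. Closeness was the root mean square difference of log2(FPKM + 1) values after centring each gene on its mean, over 12002 genes with a median of 0.589. The values were 0.141 for Exoc3l4, 0.154 for Abi3, 0.164 for Rgs1, 0.169 for Shisa9 and 0.179 for Gp1ba. Rgs1, for example, measured 55.7 and 66.3 FPKM in HSCs without RBCs, 158 and 126 FPKM in HSCs with RBCs, 91.5 and 67.9 FPKM in LSK cells without RBCs, and 121 and 121 FPKM in LSK cells with RBCs. Shisa9 lay under 2 FPKM in all 8 libraries. Gp1ba is among the platelet markers listed above, and the part of such cells in the likeness was not tested. All 5 genes share the libraries of Skil, and the likeness is a description only.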

How the data were processed

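Polyadenylated RNA of 8 libraries (4 groups of 2) was amplified as full-length cDNA with the SMART-Seq HT kit and made into libraries with NexteraXT. The authors deposited 1 table of FPKM values per library. The submitters' processing notes name TopHat2 2.1.1, Bowtie2 2.2.8, SAMtools 0.1.18, Cuffdiff 2.2.1 and mm10. The files hold no counts, so depth was estimated from the step size of low FPKM values: of 5365 genes with a mean under 1 FPKM, 2895 (54.0%) were whole multiples of a common step in every library within 0.01, which is too few for a count test. Relative depth was 0.886 to 1.13, and 99 single-transcript genes of at least 4000 bases gave a median of 12500000 fragments (quartiles 7600000 and 12600000) for the first LSK library without RBCs.

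Values were tested as log2(FPKM + 1) with limma 3.58.1 (R 4.3.3), with 1 fit over 4 groups, a mean-variance trend and no further scaling, for 12003 genes with at least 1 FPKM in at least 2 libraries. The fit had 4 residual and 5.18 prior degrees of freedom. Benjamini-Hochberg adjustment ran over all genes tested, and a call needed an adjusted p under 0.05 and a 2-fold difference unless no fold threshold is stated. An exact permutation test of 2 against 2 cannot go below p = 0.333, so none was used. The 10 genes and all lists were chosen with earlier results of these data known. Named from the pathway list are the genes past the test in each role and comparison, at most 6 each, or else the one with the largest difference; the 5 profiles nearest to Skil are also named. Positions are from GENCODE M21 (GRCm38), where 23310 of 24346 symbols matched. Alternatives were a pseudocount of 0.1, other filters and scalings, fits on a contrast's own libraries, a replicate block, no trend, no fold threshold and each library left out. A few genes of the lists and 1 promoter window are not reported here.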

Additional observations from a re-analysis of the deposited data

Results flagged for a closer look

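The 10 genes and the 53 tested pathway genes were searched for opposite movements. In 6 genes, every library of one group differed in one direction and every library of another group in the opposite direction under the same contrast. In the single contrasts, libraries of the 2 groups did not overlap for 41.7% to 66.8% of all genes. The share with opposite movements was not counted over all genes, so nothing is read from the 6. For Skil, LSK cells lay above HSCs without RBCs and below them with RBCs, and the log2 difference with RBCs minus that without was -0.7; it was not tested, since Skil was chosen with these values known. For the 5 other genes the interaction term of limma's fit did not pass after adjustment over all genes. Bmp4 was higher with RBCs in both HSC libraries and lower in both LSK libraries, with an effect in HSCs minus that in LSK cells of 0.81 (adjusted p = 0.31). Trim33, whose product ubiquitinates Smad4, lay the other way, at -0.18 (adjusted p = 0.78). Smad4, Smad1 and Lyl1 were lower in LSK cells than in HSCs without RBCs and higher with RBCs, and the log2 difference with RBCs minus that without was 1 for Smad4 (adjusted p = 0.22), 0.43 for Smad1 (adjusted p = 0.31) and 0.35 for Lyl1 (adjusted p = 0.51). Of the 53 pathway genes, 0 passed the interaction at an adjusted p under 0.05 in limma's fit. At an unadjusted p under 0.05 there were 10 (18.9%), beside 12.5% of all genes tested. Tgfb2 and Tgfb3, which passed the filter only through the LSK libraries with RBCs, are among the 10, so nothing is read from this share.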

How the results depend on the processing

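With no fold threshold the counts were 2 and 3 of the 10 genes between LSK cells and HSCs without and with RBCs (the 3 count Skil). All counts of pathway genes in this section are over the whole list, with Tgfb2 and Tgfb3 included. Those 2 passed the filter only through the LSK libraries with RBCs, so nothing is read from counts that hold them. Both also leave the filter when 1 LSK library with RBCs is left out. In the main fit the counts at 2-fold were 2 in HSCs and 5 in LSK cells with RBCs. Between the populations they were 5 in either culture. With no fold threshold they were 7 and 9 with RBCs in HSCs and LSK cells, and 12 and 15 between the populations without and with RBCs. Without Tgfb2 and Tgfb3, the counts with RBCs in LSK cells were 3 at 2-fold and 7 with no fold threshold. Those between the populations with RBCs were 4 and 13. With no filter on low values, 3 pathway genes in place of 5 were called with RBCs in LSK cells. Leaving out 1 library gave 0 to 1 of the 10 genes between the populations in either culture, 1 to 2 of the 10 with RBCs, 2 to 3 pathway genes with RBCs in HSCs and 2 to 5 in LSK cells, and 3 to 5 between the populations in either culture. The direction between the populations turned, in genes that never passed the test, for Smad3 (-0.20 to 0.10 without RBCs, -0.372 to 0.038 with RBCs), Ski (-0.22 to 0.10 and -0.24 to 0.19), Smad7 without RBCs (-0.001 to 0.163) and Tgfb1 with RBCs (-0.008 to 0.349). Tgfbr1 and Id1 without RBCs had adjusted p of 0.084 and 0.067 with no filter, Id1 with RBCs 0.065, and Tgfbr1 without RBCs 0.082 on the libraries of its contrast alone, where Id3 with RBCs passed at 0.016. Scaling moved the median of all genes by at most 0.0247. Over 6 pairs of groups, differences between replicates 1 and 2 correlated at -0.067 to 0.095 over all genes tested. Such values cannot tell whether libraries of the same replicate number shared animals or sorts. With a replicate block, 2 and 5 pathway genes were called with RBCs in HSCs and LSK cells, and Skil differed by 1.39 and 0.69; the block raised the adjusted p of Tgfbr3 (0.05) and Acvr2b (0.067) in HSCs, Smad4 (0.058) and Myc (0.057) in LSK cells, and Bmp4 (0.052), Myc (0.057) without RBCs and Acvr2b (0.065) with RBCs between the populations to the threshold or above. With 2 libraries a group and the depth estimated, Smad7, Tgfb2 and Tgfb3 rest on few reads.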
